A study of Mus musculus with 10 samples.

Results

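These 32 genes encode the enzymes of glycolysis, the transporters that carry glucose, lactate and pyruvate across membranes, the pyruvate dehydrogenase complex with 2 of its kinases, and the pentose phosphate pathway. They were chosen by name as a pathway, and every probe set whose single gene symbol in the platform annotation was one of these names was taken. Of the 32 genes, 27 had such probe sets, 63 of the 45101 on the array, and 26 genes with 54 probe sets were bright enough to be tested. The oxidising enzyme Gapdh was read only by 3 control probe sets of the manufacturer, which are shown apart. Gpi1, Eno1, Mpc2 and G6pdx were not analysed here. The only probe set of Eno2, the neuronal enolase, was below the brightness filter and at or under the control level, defined below, on all 10 arrays. In all, 9 of the 63 probe sets were too dim to be tested, and each exceeded the control level on at most 2 arrays.

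Glycolysis splits glucose into a pair of pyruvate molecules and gains ATP in its later steps. The growing and fully grown mouse oocyte is known for using glucose poorly and for taking up pyruvate made by the surrounding cumulus cells, which it oxidises through pyruvate dehydrogenase in its mitochondria. The pentose phosphate pathway branches off at glucose 6-phosphate and supplies NADPH and the ribose of nucleotides.

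The samples were total RNA of fully grown mouse oocytes at the germinal vesicle stage, in which meiosis is arrested in its first prophase. Wild-type oocytes were read on 5 arrays and CTCF-depleted oocytes on another 5, CTCF being the insulator-binding protein at the base of many chromosome loops. The labels give no strain, age, allele or agent of depletion, no number of oocytes per sample, and do not say whether samples came from separate animals. The p-values therefore measure only how these samples vary, possibly for technical reasons, and in bulk RNA fewer cells of a type and less RNA per cell cannot be told apart.

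The 2 Ctcf probe sets fell from 766 ± 74.1 to 20.7 ± 22.7 and from 1001 ± 76.02 to 36.3 ± 33.7 (mean signal ± SD, n = 5 in each group, here and below). Depleted replicate 5 kept the most Ctcf signal, 61.1 and 95.8, against at most 14.2 and 29.3 on the other 4 depleted arrays. The control level of an array was the highest of its 27 Bacillus control probe sets, 49.4% to 62.9% of probe sets exceeded it, and arrays correlated at 0.982 to 0.986 within groups and 0.976 to 0.981 between them across probe sets, which are not independent. The number of arrays limits the precision. The 10 oocyte markers, zona pellucida genes and Gdf9 among them, were all tested and 0 passed the test in limma, with 2 of the 10 at an unadjusted p under 0.05. Of 20 granulosa and cumulus markers 16 were tested, and 0 of these 16 lay at or under the control level on every array. Tested markers had passed the brightness filter, so that count says little about which cells were present. It was also 0 for the 5 tested theca and stroma markers and the 6 tested blood, immune and endothelial markers. Wt1 and Tnfaip6, too dim to be tested, were at or under the level on all 10 arrays. The summed signal of the 16 was 950 to 1906 on wild-type and 1026 to 1252 on depleted arrays. Wild-type replicate 2 alone gave 1906, while the other 4 wild-type arrays gave at most 1059, and 8 of the 16 markers had their highest wild-type signal on that array. Read by the brightest tested probe set, 2 of these 16 markers rose, Nr5a2 and Fshr, and 0 fell. A dimmer probe set of Kitl, which encodes the KIT ligand of granulosa cells, fell by 0.79 on the log2 scale (limma, adjusted p = 0.0138), and its brightest gave -0.45 with no overlap between groups (adjusted p = 0.0628). Theca and stroma markers summed to 51.9 to 68.4 on wild-type and 40.4 to 62.0 on depleted arrays, and blood, immune and endothelial markers to 125 to 154 and 122 to 148.

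In CTCF-depleted oocytes 5 of the 26 tested genes rose, Tpi1, Pdha1, Pgam1, Taldo1 and Aldoc, and 3 fell, Pgk1, Pdk1 and Tkt (limma, adjusted p under 0.05 over all probe sets, each gene read by its brightest tested probe set). The 8 called genes are 30.8% of the 26, beside 16.4% of all 13811 genes tested; 7.26% of all genes rose and 9.12% fell. Most changes were small: outside Aldoc, whose wild-type signal was mostly background, the largest was 1.41-fold, for Tpi1. The median log2 fold change of the 26 genes was 0.053, beside -0.017 for all genes, and the median size without sign was 0.18, beside 0.16. In 6 of the 26 genes the wild-type and depleted signals did not overlap, higher in 5 (Tpi1, Pdha1, Taldo1, Aldoa and Pfkl) and lower in Pdk1; over all genes these shares were 6.17% higher and 8.05% lower, 14.2% in all. Counted by probe set, 10 of 54 rose and 5 fell, 27.8%, beside 12.6% of all probe sets, of which 5.48% rose and 7.12% fell. The shares over all genes and probe sets were not matched to the members for brightness. Bright probe sets can have smaller standard errors, 0.045 for the brightest of Aldoa against 0.29 for that of Aldoc, so smaller changes are called. A stricter brightness filter, at the 60th percentile, left 10219 genes, of which 2290 were called. Of the 18 genes that were not called, 5 had an unadjusted p under 0.05, beside 1930 of the 11548 not called among all genes.

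**Figure D1:**
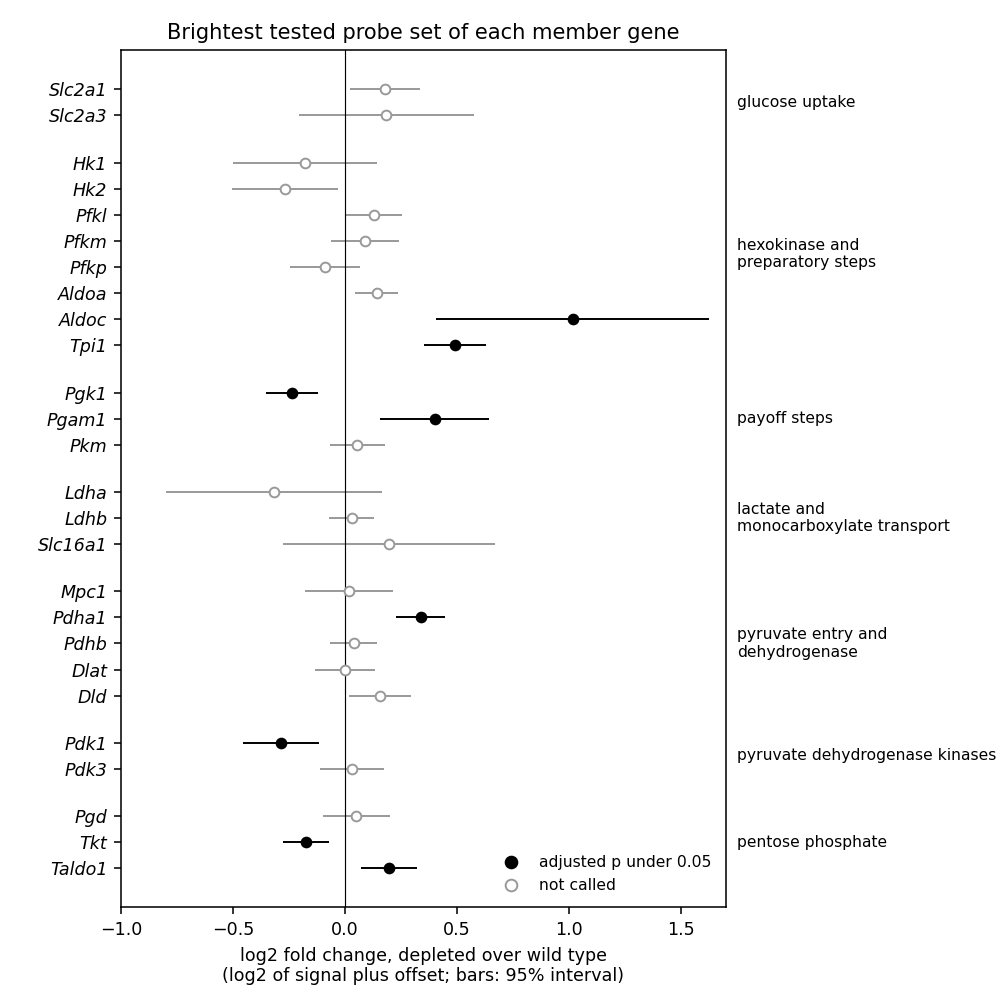
Log2 fold change of depleted over wild-type oocytes (horizontal axis, points with 95% intervals) for the brightest tested probe set of each of 26 genes, ordered by role. Black points are the 8 genes that passed the test, from -0.29 for Pdk1 to 1.02 for Aldoc, and grey open points are the 18 that did not.

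The counts moved with single arrays and with the scaling and the variance model. Leaving out 1 array at a time gave 2 to 4 higher genes and 1 to 3 lower genes: 3 rose without wild-type replicate 1, 3 or 4 or depleted replicate 2, 2 rose without wild-type replicate 5 or depleted replicate 1 or 4, and 1 fell without wild-type replicate 5. Centring each array on its median gave 7 higher and 0 lower genes, and a variance model without an intensity trend gave 3 and 0. Calls over the whole array moved as well. Of all tested probe sets 1481 rose and 1925 fell in the main fit, 2095 and 1421 under median centring, and 1020 and 1596 without the trend. Of all tested genes 2263 were called in the main fit and 1847 to 2210 with 1 array left out. With the mean over the probe sets of a gene in place of the brightest, Tpi1, Aldoc, Pgam1, Taldo1 and Slc2a1 rose, Pgk1 fell, and Pdha1, Pdk1 and Tkt did not pass. Tpi1 was the 1 gene of the 8 that passed under every alternative tried.

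Glucose uptake was read through Slc2a1, which encodes the widespread glucose transporter GLUT1, and Slc2a3, which encodes the high-affinity transporter GLUT3. The brightest Slc2a1 probe set missed the threshold, but the 2 others rose. The strongest, 1426600_at, was 215, 229, 203, 220.2 and 204 on wild-type replicates 1 to 5 and 322, 274, 251, 259 and 288 on depleted replicates 1 to 5. Every depleted array lay above every wild-type array. Its signal rose from 214 ± 11.2 to 279 ± 27.98, a log2 fold change of 0.37 ± 0.08 (± SE, here and below) and 1.30-fold (limma, adjusted p = 0.00380), and it passed without any 1 array in turn. The second, 1426599_a_at, was 356, 345, 405, 389 and 359 on wild-type replicates 1 to 5 and 473, 443, 447, 423 and 381 on depleted replicates 1 to 5. The groups overlapped only through depleted replicate 5, which was below wild-type replicates 3 and 4. That rise was 1.17-fold (limma, adjusted p = 0.0476), and it was lost without any 1 of wild-type replicates 1, 2, 4 and 5 or depleted replicates 1 to 4 (adjusted p 0.0582 to 0.115), with quantile normalization (0.0681) and without the trend (0.104). The brightest, 1434773_a_at, was 570.1, 615, 703, 603 and 562 on wild-type replicates 1 to 5 and 772, 619.8, 714, 714 and 639 on depleted replicates 1 to 5, a log2 fold change of 0.18 ± 0.07 that did not pass (limma, adjusted p = 0.131). With the mean over its 3 probe sets in place of the brightest, Slc2a1 rose by 0.26 on the log2 scale (limma, adjusted p = 0.00603). Slc2a3 was dim, with means of 18.2 ± 4.31 in wild-type and 20.96 ± 3.88 in depleted oocytes and a log2 fold change of 0.19 ± 0.18 (limma, adjusted p = 0.592). Its other tested probe set gave 0.49 ± 0.22 (limma, adjusted p = 0.168).

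In the preparatory steps of glycolysis, where hexose is phosphorylated and split, 2 of 8 tested genes rose, Tpi1 and Aldoc, and 0 fell. Tpi1 encodes triosephosphate isomerase, which interconverts the triose products of aldolase. Its brightest probe set, 1452927_x_at, was 837, 723, 816, 729.6 and 668 on wild-type replicates 1 to 5 and 978, 1122, 1032, 1103 and 1067 on depleted replicates 1 to 5. All 5 depleted arrays exceeded all 5 wild-type arrays. The signal rose from 755 ± 70.2 to 1060.4 ± 57.7, a log2 fold change of 0.49 ± 0.07 (limma, adjusted p = 6.78e-05). The other 2 Tpi1 probe sets rose too, from 756 ± 45.2 to 996 ± 66.5 (1.32-fold) and from 612 ± 39.9 to 741 ± 14.02 (1.21-fold; limma, adjusted p = 0.000229 and 0.00304). In both, the groups did not overlap, and all 3 passed without any 1 array in turn. The x in a name such as 1452927_x_at marks a probe set with probes that can also match other transcripts, and glycolytic genes are known for their many processed pseudogenes.

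The aldolases cut fructose 1,6-bisphosphate into the trioses. Aldoc, the brain-type aldolase, was near the control level: its probe set 1451461_a_at was 2.10, 7.77, 6.91, 8.30 and 3.44 on wild-type replicates 1 to 5 and 16.02, 17.4, 7.76, 15.4 and 11.7 on depleted replicates 1 to 5. It stood above the control level on 1 wild-type and 4 depleted arrays, and depleted replicate 3 fell within the wild-type range. The wild-type side was thus mostly background, and the fitted log2 fold change of 1.02 ± 0.29 (limma, adjusted p = 0.0273) is not a measured ratio. With each wild-type array set at the higher of its signal and its control level, the depleted signal was 1.45-fold higher. The call was lost without wild-type replicate 1 or 5 or depleted replicate 1, 2 or 4 (adjusted p 0.0643 to 0.0683). The other Aldoc probe set was at or under the control level on all 10 arrays. Aldoa, the muscle-type aldolase that most tissues use, was above the control level on all 10 arrays. Its probe set 1434799_x_at was 1022, 965, 977, 957 and 943 on wild-type replicates 1 to 5 and 1066, 1084, 1066, 1112 and 1134 on depleted replicates 1 to 5. The groups did not overlap and the rise was 1.12-fold, 0.17 ± 0.05 on the log2 scale (limma, adjusted p = 0.0240), lost without wild-type replicate 2, 4 or 5 or depleted replicate 4 or 5 (adjusted p 0.0550 to 0.0607), and without the trend (0.0775). The brightest Aldoa probe set gave 1230.0 ± 49.3 in wild-type and 1356 ± 28.9 in depleted oocytes, again with no overlap, and just missed the threshold (limma, adjusted p = 0.0511). Of its other 3 probe sets 2 had log2 fold changes of 0.17 and 0.20 and 1 had -0.11, and 0 of the 3 passed.

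Hexokinase and phosphofructokinase carry much of the control of glycolysis, and 0 of their 5 tested genes passed in limma, with 2 at an unadjusted p under 0.05, Hk2 and Pfkl. Hexokinase phosphorylates glucose on entry: Hk1 gave 29.9 ± 5.03 in wild-type and 25.96 ± 2.98 in depleted oocytes, and Hk2 gave 64.2 ± 8.07 in wild-type and 52.7 ± 3.66 in depleted oocytes, a log2 fold change of -0.27 ± 0.11 with a 95% interval of -0.51 to -0.03 (limma, adjusted p = 0.140). Phosphofructokinase commits the sugar to glycolysis, and its liver, muscle and platelet forms are encoded by Pfkl, Pfkm and Pfkp. The brightest Pfkl probe set gave 340.3 ± 14.1 in wild-type and 372 ± 10.8 in depleted oocytes with no overlap between groups, a log2 fold change of 0.13 ± 0.06 (limma, adjusted p = 0.183). Pfkm and Pfkp had log2 fold changes of 0.09 ± 0.07 and -0.09 ± 0.07 (limma, adjusted p = 0.494 and 0.511). Dimmer probe sets had log2 fold changes of 0.07 and -0.57 for Pfkl and -0.39 for Pfkp, and 0 of these 3 passed.

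**Figure D2:**
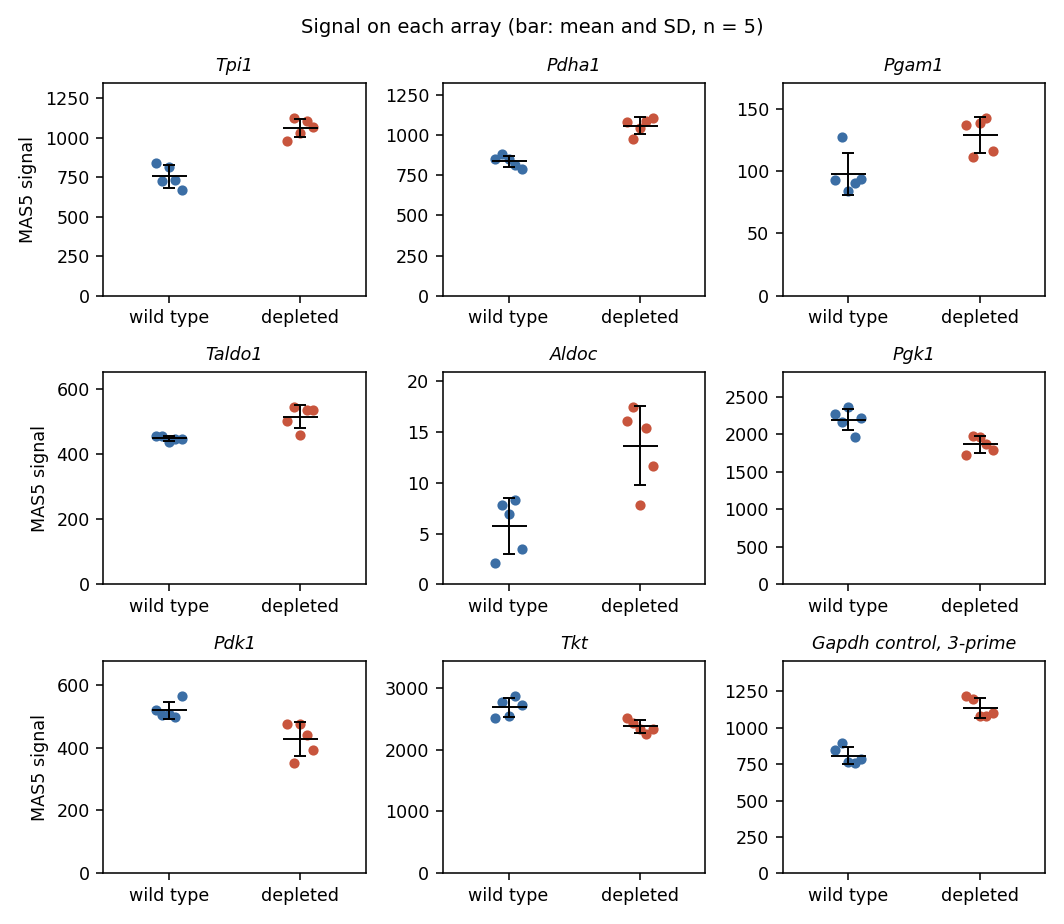
MAS5 signal (vertical axis, linear, from 0) on each of 5 wild-type and 5 depleted arrays for the called genes and the 3-prime Gapdh control, 1 panel each, with bars at the mean and whiskers of 1 SD. The groups separate in Tpi1, where 723 and 1122 are replicate 2 of each group, and in the Gapdh control, and overlap in Pgk1, Pgam1, Tkt and Aldoc.

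The payoff steps, which yield ATP, moved both ways. Glyceraldehyde 3-phosphate dehydrogenase, Gapdh, oxidises the triose. Its 3-prime control probe set was 848, 896, 762, 755 and 785 on wild-type replicates 1 to 5 and 1218, 1199.8, 1084, 1078 and 1102 on depleted replicates 1 to 5. The control from the middle of the transcript was 262, 279, 258, 223 and 213 on wild-type replicates 1 to 5 and 395, 431, 315, 385 and 374 on depleted replicates 1 to 5. The 5-prime control was 109.7, 112, 78.2, 84.8 and 81.9 on wild-type replicates 1 to 5 and 164, 181, 127, 137 and 146 on depleted replicates 1 to 5. On all 3, every depleted array lay above every wild-type array, with rises of 1.40, 1.53 and 1.61-fold and log2 fold changes of 0.49, 0.62 and 0.68 (two-sided exact permutation test, p = 0.00794 each, the smallest that 5 against 5 arrays allow; 0.0265 after Benjamini-Hochberg adjustment over 10 control probe sets). The 3 Gapdh controls read the same transcript on the same arrays and are not independent. Their adjusted p is this low because all 3 reached the smallest p. These controls were left out of the fit, so the 30.8% does not count Gapdh. The 3 Actb controls, read the same way, had log2 fold changes of 0.046, 0.094 and 0.17 (exact permutation p = 0.817, 0.627 and 0.183). The ratio of 3-prime to 5-prime signal, a sign of RNA quality, was 5.97 to 7.81 on wild-type and 5.55 to 8.12 on depleted arrays for Actb, and 7.73 to 9.75 and 6.64 to 8.51 for Gapdh (exact permutation p = 0.706 and 0.0556).

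Pgk1 encodes phosphoglycerate kinase, which makes ATP in the step after Gapdh, and it fell. Its brightest probe set, 1438640_x_at, was 2271, 2170.0, 2359, 1968 and 2215 on wild-type replicates 1 to 5 and 1717, 1978, 1961, 1874 and 1793 on depleted replicates 1 to 5. The depleted arrays were lower, with 1 overlap: depleted replicate 2 lay just above wild-type replicate 4. The signal fell from 2197 ± 146 to 1865 ± 111, a log2 fold change of -0.24 ± 0.06 and 1.18-fold lower (limma, adjusted p = 0.00856), and it passed without any 1 array in turn. With each array centred on its median the change was -0.18 (adjusted p = 0.0686), and without the trend the adjusted p was 0.0649. A dimmer probe set, 1439435_x_at, was 138, 118, 115, 105 and 158 on wild-type replicates 1 to 5 and 102, 97.5, 94.6, 89.99 and 106 on depleted replicates 1 to 5, a change of -0.35 ± 0.11 (limma, adjusted p = 0.0389), with depleted replicate 5 just above wild-type replicate 4. That call was lost without any 1 of wild-type replicates 1, 2 and 5 or depleted replicates 1 to 4 (adjusted p 0.0515 to 0.110), under median centring (0.0875), with quantile normalization (0.0560) and without the trend (0.0724). The remaining probe set, 1417864_at, had a log2 fold change of -0.16 ± 0.07 and did not pass (limma, adjusted p = 0.156). Both called Pgk1 probe sets carry the x in their names, which marks probes that can also match other transcripts, and this one does not.

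Pgam1 encodes phosphoglycerate mutase, which moves the phosphate group before enolase acts, and it rose. Its single probe set was 93.3, 127, 84.3, 90.9 and 93.9 on wild-type replicates 1 to 5 and 137, 112, 139, 142 and 116 on depleted replicates 1 to 5. Wild-type replicate 2, the array with the high granulosa and cumulus markers, stood above the other 4 wild-type arrays and above depleted replicates 2 and 5. The signal rose from 97.9 ± 16.9 to 129 ± 14.3, a log2 fold change of 0.40 ± 0.11 and 1.32-fold (limma, adjusted p = 0.0282). Without wild-type replicate 2 it was 0.50 (adjusted p = 0.00459), and the call was lost without wild-type replicate 1, 3, 4 or 5 or depleted replicate 1, 3 or 4 (adjusted p 0.0593 to 0.0774), and without the trend (0.0663). The part of the marker cells in this gene's change was not tested. Pkm, pyruvate kinase, which makes the last ATP and pyruvate, gave 1657 ± 35.7 in wild-type and 1728 ± 163 in depleted oocytes, a log2 fold change of 0.06 ± 0.06 with a 95% interval of -0.07 to 0.18 (limma, adjusted p = 0.608).

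The promoters of these 3 neighbouring enzymes, Tpi1, Pgk1 and Pgam1, are shown because they moved in different directions. Glycolytic genes are also known targets of the hypoxia factor HIF, which binds ACGTG or GCGTG. Only the ACGTG form, called the core here, was searched. Each line gives the 250 bases before the transcription start in RefSeq, build GRCm38.p6, 5′ to 3′ on the strand of the gene, with every ACGTG or its reverse CACGT in capitals.
Tpi1, chr6:124814159-124814408, minus strand: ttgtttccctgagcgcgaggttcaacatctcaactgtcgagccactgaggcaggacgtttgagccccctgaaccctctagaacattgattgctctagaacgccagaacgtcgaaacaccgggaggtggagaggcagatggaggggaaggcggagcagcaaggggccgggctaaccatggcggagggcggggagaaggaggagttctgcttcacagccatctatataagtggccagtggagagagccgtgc
Pgk1, chrX:106186850-106187099, plus strand: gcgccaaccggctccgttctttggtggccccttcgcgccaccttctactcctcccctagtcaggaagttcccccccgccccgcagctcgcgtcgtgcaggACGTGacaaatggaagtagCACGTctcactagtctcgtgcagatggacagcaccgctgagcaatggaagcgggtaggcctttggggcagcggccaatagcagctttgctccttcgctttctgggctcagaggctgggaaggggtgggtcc
Pgam1, chr19:41911621-41911870, plus strand: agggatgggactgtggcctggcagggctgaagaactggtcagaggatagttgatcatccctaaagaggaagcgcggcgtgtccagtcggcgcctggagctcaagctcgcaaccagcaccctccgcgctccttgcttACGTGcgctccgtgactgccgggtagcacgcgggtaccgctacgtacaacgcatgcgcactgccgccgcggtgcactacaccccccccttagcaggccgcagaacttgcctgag
Pgk1, which fell, held the core at positions -150 and -131 from its start, Pgam1, which rose, at -114, and Tpi1, which rose most of the 3, had no match in this window. The promoter table held 31 of the 32 genes, and 11 of the 31 had the core on either strand, 35.5%, beside 18.5% of all 27025 genes, counting every start of a gene. Of the 8 called genes, Pgk1 and Pgam1 had this ACGTG form. The GCGTG form was not counted, and it occurs in windows of other called genes, Taldo1 and Tkt among them, and again in that of Pgam1. The GC box GGGCGG, which Sp1 binds, was found on either strand in 22 of the 31, 71.0%, beside 35.4% of all genes. For both motifs, the shares over all genes were not matched to the members for G and C content, number of starts or expression. They therefore do not show that either motif is enriched. A CACGTG counts for the HIF core on both strands, and matches to the core and to the GC box can share bases. A match is a run of letters in these windows and was not set against binding, which was not measured here.

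Lactate dehydrogenase interconverts pyruvate and lactate, and 0 of the 3 tested genes of this step and of monocarboxylate transport passed in limma, with 0 at an unadjusted p under 0.05. Ldhb, the heart-type subunit, read 8530.0 ± 549.8 in wild-type and 8701 ± 450.3 in depleted oocytes on its brightest probe set, a log2 fold change of 0.03 ± 0.05 with a 95% interval of -0.07 to 0.13. Its other 3 probe sets had log2 fold changes of -0.0068 to -0.0045. The highest signal of any probe set was 8130 to 10019 per array, so Ldhb lay near the top of the measured range. Ldha, the muscle-type subunit, read 73.0, 170, 70.7, 48.3 and 78.2 on wild-type replicates 1 to 5 and 71.1, 61.2, 58.2, 76.9 and 55.0 on depleted replicates 1 to 5. Wild-type replicate 2 was again far above the rest, and without it the depleted signals lay within the range of the other 4 wild-type arrays. The Ldha log2 fold change was -0.32 ± 0.23 with all arrays (95% interval -0.80 to 0.16; limma, adjusted p = 0.425) and -0.053 without wild-type replicate 2 (adjusted p = 0.873). On that array the granulosa genes Inha and Inhbb, which encode inhibin subunits, read 536 and 293, against 121 to 188 and 27.3 to 53.4 on the other wild-type arrays. Not all markers went this way, since only 8 of the 16 tested had their highest wild-type signal there. Fshr had its lowest, 13.4, against 20.3 to 31.0 on the other wild-type arrays. Slc16a1, the monocarboxylate transporter MCT1, was dim at 16.8 ± 4.05 in wild-type and 20.02 ± 6.20 in depleted oocytes (limma, adjusted p = 0.647).

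**Figure D3:**
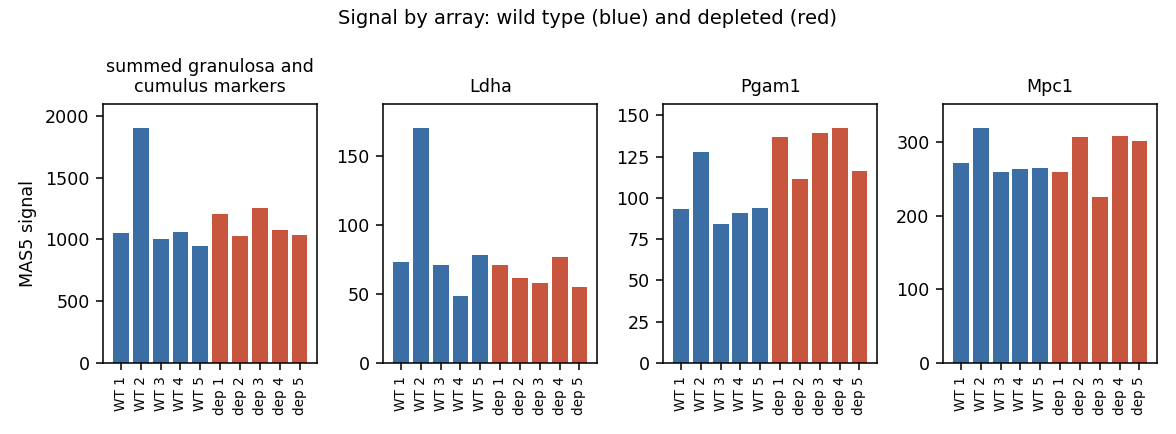
Signal by array (bars from 0, wild type in blue and depleted in red) of the summed granulosa and cumulus markers, Ldha, Pgam1 and Mpc1. Wild-type replicate 2 is the highest wild-type bar in each panel, 1906, 170, 127 and 319.

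Pyruvate enters mitochondria through the carrier subunits Mpc1 and Mpc2 and is turned into acetyl-CoA by pyruvate dehydrogenase. Pdha1 encodes the alpha subunit of its first enzyme, the site of its regulation by phosphorylation, and its brightest probe set rose. This probe set, 1418560_at, was 849, 882, 855, 812 and 792 on wild-type replicates 1 to 5 and 1084, 976, 1044, 1090.4 and 1105 on depleted replicates 1 to 5. Every depleted array exceeded every wild-type array. The signal rose from 838 ± 35.7 to 1060.0 ± 51.99, a log2 fold change of 0.34 ± 0.05 and 1.26-fold (limma, adjusted p = 0.000323), and it passed without any 1 array in turn. The other Pdha1 probe set went the opposite way: 1449137_at was 266, 233, 274, 230.3 and 268 on wild-type replicates 1 to 5 and 206, 236, 180.1, 153 and 233 on depleted replicates 1 to 5. Here depleted replicates 2 and 5 lay within the wild-type range, and the signal fell from 254 ± 20.8 to 202 ± 35.7, a log2 fold change of -0.35 ± 0.11 (limma, adjusted p = 0.0463). That fall was lost without any 1 of the wild-type arrays or depleted replicate 1, 3 or 4 (adjusted p 0.0501 to 0.115), under median centring (0.106) and without the trend (0.121). The mean over both probe sets gave a log2 fold change of -0.0042 (limma, adjusted p = 0.976). Pdha1 was the only 1 of the 14 genes with several tested probe sets to be called in both directions.

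Of the partner subunits, Pdhb, the beta subunit, gave 756 ± 23.8 in wild-type and 777 ± 29.5 in depleted oocytes, a log2 fold change of 0.04 ± 0.05. Dlat, the acetyltransferase, gave 349 ± 21.8 in wild-type and 348 ± 6.97 in depleted oocytes, with a 95% interval of -0.13 to 0.13 for its log2 fold change, and its other 2 probe sets gave -0.0030 and -0.053. A dim second Pdhb probe set gave -0.35 ± 0.26 and did not pass. Dld, the dehydrogenase that reoxidises the complex, gave 615 ± 34.6 in wild-type and 688 ± 58.7 in depleted oocytes, a change of 0.16 ± 0.07 (limma, adjusted p = 0.137), and Mpc1 gave 276 ± 24.8 in wild-type and 280.2 ± 36.6 in depleted oocytes with an interval of -0.18 to 0.21. Of these 4 genes 0 passed in limma, and 1, Dld, had an unadjusted p under 0.05.

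Pyruvate dehydrogenase kinases phosphorylate the alpha subunit and switch the complex off. Pdk1 fell: its brightest probe set, 1423747_a_at, was 521, 503, 506, 498 and 564 on wild-type replicates 1 to 5 and 476, 352, 476, 441 and 392 on depleted replicates 1 to 5. All depleted arrays lay below all wild-type arrays. The signal fell from 518 ± 26.8 to 427 ± 54.5, a log2 fold change of -0.29 ± 0.08 and 1.22-fold lower (limma, adjusted p = 0.0275). The call was lost without wild-type replicate 1 or 5 or depleted replicate 2 or 5 (adjusted p 0.0502 to 0.0769), and under median centring (0.0545) and without the trend (0.0908). Its other 2 tested probe sets had changes of -0.21 ± 0.08 and -0.10 ± 0.20 that did not pass (adjusted p = 0.111 and 0.820). Pdk3, another kinase of the family, gave 415 ± 30.7 in wild-type and 424 ± 25.9 in depleted oocytes and a change of 0.03 ± 0.07 (limma, adjusted p = 0.823).

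**Figure D4:**
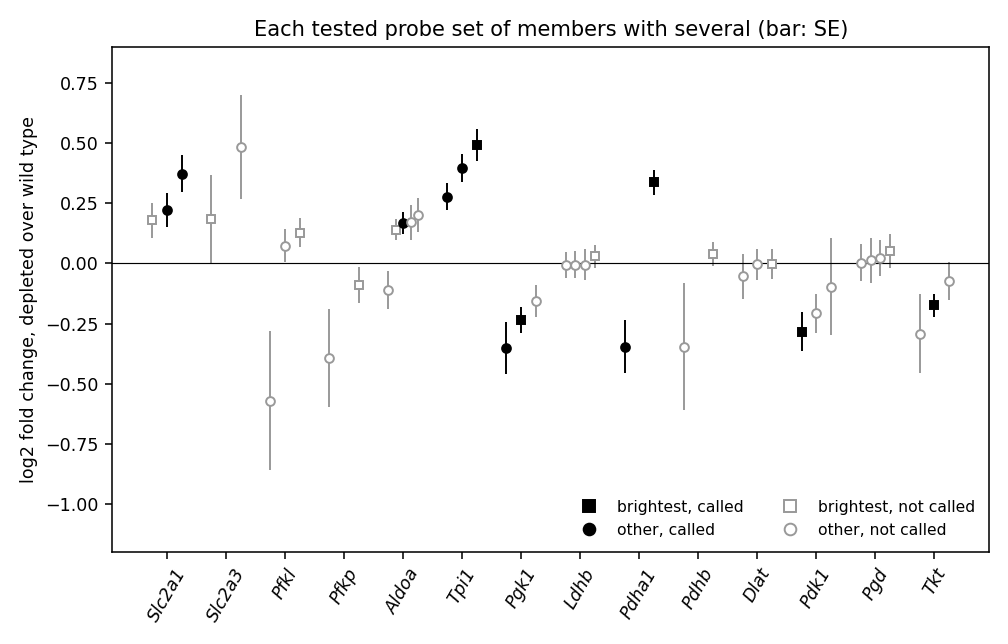
Log2 fold change of depleted over wild-type oocytes (vertical axis, bars of 1 SE) for each tested probe set of the 14 genes with several. Filled symbols passed the test: all 3 of Tpi1 lie above 0, those of Pgk1 below 0, and the 2 of Pdha1 lie on opposite sides, at 0.34 and -0.35.

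In the pentose phosphate pathway the 2 enzymes that shuffle sugar carbon in its non-oxidative branch moved in opposite directions. Taldo1 encodes transaldolase, and its probe set was 455, 457, 438, 445 and 447 on wild-type replicates 1 to 5 and 501, 543, 459.6, 535 and 535 on depleted replicates 1 to 5. All 5 depleted arrays were higher, the lowest by little. The signal rose from 448 ± 7.54 to 515 ± 34.9, a log2 fold change of 0.20 ± 0.06 and 1.15-fold (limma, adjusted p = 0.0402). The call was lost on leaving out any 1 array but depleted replicate 3 (adjusted p 0.0536 to 0.0969), and with quantile normalization (0.0508) and without the trend (0.0815). Tkt encodes transketolase, and its brightest probe set, 1439443_x_at, was 2505, 2776, 2545, 2864 and 2722 on wild-type replicates 1 to 5 and 2519, 2426, 2335, 2254 and 2342 on depleted replicates 1 to 5. Depleted replicate 1 lay inside the wild-type range and the other 4 lay below it. The signal fell from 2682 ± 153 to 2375 ± 101, a log2 fold change of -0.17 ± 0.05 and 1.13-fold lower (limma, adjusted p = 0.0228), lost without wild-type replicate 2, 4 or 5 or depleted replicate 4 (adjusted p 0.0504 to 0.0665), under median centring (0.168) and without the trend (0.118). The other 2 Tkt probe sets had changes of -0.07 ± 0.08 and -0.29 ± 0.16 that did not pass. Only the called Tkt probe set carries the x that marks probes able to match other transcripts. Pgd, 6-phosphogluconate dehydrogenase of the oxidative branch, gave 829 ± 69.5 in wild-type and 859.6 ± 79.00 in depleted oocytes on its brightest probe set, and its 4 probe sets had log2 fold changes of 0.0035 to 0.051 with 0 passing.

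Related subunits and isozymes were also compared within each array, over 8 pairs with two-sided exact permutation tests. A difference within an array removes nearly all of the array's scaling for bright genes. For dim genes such as Aldoc some of it stays, because an offset of 2.47 is added to each signal. Each gene was read by its brightest tested probe set. After Benjamini-Hochberg adjustment 0 of the 8 passed, and 4 had an unadjusted p under 0.05. The smallest exact p, 0.00794, becomes 0.0635 when a single pair reaches it, so a single pair could not pass whatever its shift. Without wild-type replicate 1, 2 passed. The log2 difference between Pdha1 and Pdhb was 0.046 to 0.29 on wild-type and 0.38 to 0.52 on depleted arrays, a shift of 0.30 with no overlap (exact permutation p = 0.00794, adjusted 0.0635). With the other Pdha1 probe set the shift was -0.38 (exact permutation p = 0.0159), the opposite direction. The Pdk1 and Pdk3 difference shifted by -0.32 (exact permutation p = 0.0317, adjusted 0.0952), that of Aldoa and Aldoc by -0.88 (exact permutation p = 0.0397, adjusted 0.0952) and that of Pfkp and Pfkm by -0.18 (exact permutation p = 0.0476, adjusted 0.0952). On 4 of 5 wild-type arrays Aldoc was at or under the control level. With Aldoc set at no less than that level, the Aldoa and Aldoc shift was -0.47 (exact permutation p = 0.0159). The Ldha and Ldhb difference shifted by -0.35 (exact permutation p = 0.325).

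A wider list of 67 further genes of the same pathways, of which 53 were tested, gave 6 higher and 3 lower genes, 17%, a share near the 16.4% of all genes. The counts were 6 and 3 without any 1 array in turn. Rpia encodes ribose 5-phosphate isomerase, which makes the ribose of nucleotides, and was 884, 1112, 1119, 1147 and 1069 on wild-type replicates 1 to 5 and 1645, 1726, 1666, 1606 and 1629 on depleted replicates 1 to 5. The groups lay far apart, and Rpia rose 1.56-fold, 0.64 ± 0.06 on the log2 scale (limma, adjusted p = 3.25e-06). Pdha2, the testis form of the pyruvate dehydrogenase alpha subunit, was 20.3, 14.2, 13.5, 9.06 and 18.03 on wild-type replicates 1 to 5 and 41.8, 31.7, 41.2, 54.6 and 37.5 on depleted replicates 1 to 5. It was dim in wild-type oocytes and higher on every depleted array, 2.54-fold (limma, adjusted p = 0.000154). Ldhc, the lactate dehydrogenase subunit of germ cells, was 248, 322, 322, 328 and 239 on wild-type replicates 1 to 5 and 523, 394, 469, 431 and 326 on depleted replicates 1 to 5. Depleted replicate 5 overlapped the wild-type range, and the rise was 0.55 ± 0.12 (limma, adjusted p = 0.00532), while its other probe set missed the threshold at 0.41 (adjusted p = 0.0672). Pgp, which removes side products of glycolysis, rose from 464 ± 40.6 to 607 ± 46.8, with its dimmer probe set at -0.11 and not called. Pdhx, which holds Dld in the pyruvate dehydrogenase complex, rose from 1501 ± 142 to 1829 ± 105. Prpsap1, a partner of the enzyme that makes activated ribose, rose from 2127 ± 62.4 to 2474 ± 66.6 (limma, adjusted p = 0.00145, 0.00565 and 0.00153).

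The 3 genes of that list that fell were 2 sugar transporters and a transketolase-like gene. Slc2a9, a transporter known for carrying urate, was 116, 111, 137, 103 and 120.4 on wild-type replicates 1 to 5 and 64.9, 89.7, 81.7, 82.1 and 91.8 on depleted replicates 1 to 5, with no overlap between groups, and fell by 0.51 on the log2 scale (limma, adjusted p = 0.00470). Slc2a12, the transporter GLUT12, was 83.3, 90.7, 98.1, 85.1 and 92.3 on wild-type replicates 1 to 5 and 73.1, 67.1, 61.1, 63.9 and 67.8 on depleted replicates 1 to 5, with no overlap, and fell by 0.42 (limma, adjusted p = 0.00641); a dim second probe set, at 0.16, missed the threshold. Tktl1, the transketolase-like gene, was 22.4, 20.6, 10.2, 6.36 and 23.9 on wild-type replicates 1 to 5 and 0.362, 5.26, 9.93, 2.77 and 3.63 on depleted replicates 1 to 5. It was above the control level on 4 wild-type and 0 depleted arrays. The fitted log2 fold change was -1.52 (limma, adjusted p = 0.0142), which is not a measured ratio. With the dim arrays set at the control level Tktl1 was at least 1.71-fold lower, a bound that was not itself tested. Without the trend in the variance model Tktl1 was lost (adjusted p = 0.0504) and Pgm2, a phosphoglucomutase, passed as lower, at -0.24. Rbks and Tigar, whose brightest probe sets were not called, each had a dimmer probe set that rose, with log2 fold changes of 0.63 and 0.22 (limma, adjusted p = 0.0241 and 0.0283). Those 2 rises were each lost when some single arrays were left out, at adjusted p up to 0.0704 and 0.0693.

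**Figure D5:**
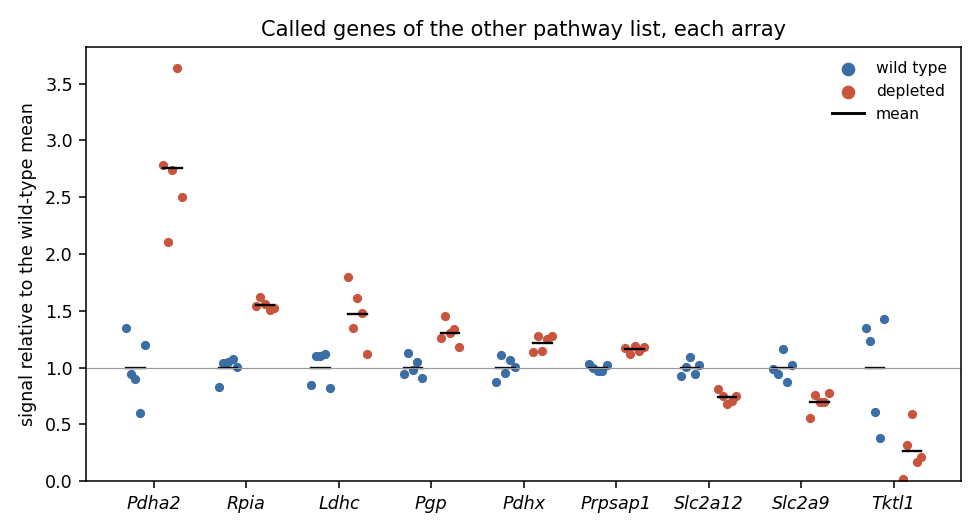
Signal of the 9 called genes of the wider list on each array, divided by the wild-type mean of that gene (vertical axis, from 0), with wild-type arrays in blue, depleted arrays in red and bars at the means. Rpia and Pdha2 separate fully, with wild-type means of 1066 and 15.02 and depleted means of 1654 and 41.4, and Tktl1 spreads widely at low signal.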

How the data were processed

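Total RNA purified with a Picopure kit was turned into biotinylated cRNA by a small-sample protocol, per the labels' protocols. The authors deposited an intensity value for each probe set on each array, on a linear scale. The submitters' processing notes name MAS5; its version and settings are not given in the sources used here. The mean after trimming 2% at each end was 150.001 on all 10 arrays, so the authors scaled each array by 1 factor, which assumes equal mean signal in both groups. Because MAS5 subtracts mismatch probes, dim signals vary more.

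Groups came from the sample titles. The log2 of each signal plus 2.47 was taken, an offset equal to the 25th percentile of the whole table, so changes of dim genes are understated. The 64 control probe sets and those with a mean under the 40th percentile (signal of about 5.13) were left out, leaving 27022. Groups were compared with limma 3.58.1 in R 4.3.3 (lmFit, eBayes with trend), with Benjamini-Hochberg adjustment over all 27022 and a threshold of 0.05. A gene was read by its brightest tested probe set. For single values the test was an exact permutation of the arrays, two-sided. Intervals are at 95%. The control level, the highest Bacillus control per array, was chosen after seeing the data. A bounded fold sets each dim array at the higher of its signal and that level.

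The members, the lists, the rule for named genes and the tests were chosen with earlier results of these data known. Every member is named by every probe set or a summary of them, with array values where a probe set was called, and the wider list by its called genes, with array values for the 3 largest changes in each direction. In the annotation 34945 probe sets had 1 symbol, 932 several and 9160 none, and 3 that list Gapdh with other genes were not used. By gene ID 27 members matched RefSeq (GRCm38.p6). The files name no genome build, so gene coordinates are given for promoters only. Alternatives were other offsets, filters, scalings and variance models, array weights, the replicate block, the Actb 3-prime to 5-prime ratio as covariate, a stricter threshold, gene means and leaving out each array. Readings added after seeing the data are named in the closing section.

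The fit was tested on simulated data of 27022 probe sets. It recovered 40% of 100 changed by a log2 of 0.5 and 69% of 100 changed by 1. Of 115 calls 6 were false. These were far fewer changes than the 3406 probe sets called in the real data, which makes the adjusted threshold stricter in the simulation. The changed probe sets were drawn at random from all tested ones, dim ones included. The rates therefore do not give the recovery for the members.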

Additional observations from a re-analysis of the deposited data

Results flagged for a closer look

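In 12 of 96 groups of 5 arrays, 12.5%, the highest or lowest array stood apart by Dixon's criterion; chance gives about 1 in 20. The groups were the brightest probe sets of the members, their other called probe sets, the called genes of the wider list, the Gapdh controls, Ctcf and the summed granulosa and cumulus markers.

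On wild-type replicate 2 the summed granulosa and cumulus markers read 1906, with the next wild-type array at 1059. The same array stood apart for Ldha (170, next 78.2), Pgam1 (127, next 93.9) and Mpc1 (319, next 271). The part of the marker cells in these 3 values was not tested.

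Depleted replicate 5 kept 61.1 of Ctcf signal on 1418330_at (next 14.2) and 95.8 on 1449042_at (next 29.3), and it had the lowest depleted Hk1 signal, 20.7 (next 26.7). Without this array 4 member genes rose and 2 fell.

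Wild-type replicate 5 was lowest for Dlat at 310.1 (next 353) and highest for Ldhb at 9479 (next 8456). Wild-type replicate 1 was highest for Pdk3 at 469 (next 414). Wild-type replicate 3 was lowest for Pfkl at 316 (next 341). Depleted replicate 4 was lowest for the Tpi1 probe set 1435659_a_at at 716 (next 743), still above every wild-type array.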

How the results depend on the processing

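The counts of called members were the least stable results, and 1 of the 8 called genes, Pdha1, changed sign. Without the brightness filter 2 member probe sets fell. Median centring left 0 lower genes and 0 lower probe sets, eBayes without the trend 3 higher and 0 lower genes with 6 and 0 probe sets, and an adjusted p under 0.01 left 2 and 1 genes with 5 and 1 probe sets. Means over the probe sets of a gene gave 5 higher and 1 lower genes. Their values for each gene were added after seeing the data: Pdha1 was at -0.0042 (adjusted p = 0.976), Pdk1 and Tkt were lost (0.140 and 0.0622), Slc2a1 was gained (0.00603), and Pdhb and Pfkl, not called either way, turned to -0.15 and -0.12. Reading Aldoc at the control level and Pdha1 by its other probe set were added too. Leaving out each array gave 2 to 4 higher and 1 to 3 lower genes, 5 to 9 higher and 1 to 5 lower probe sets, and 0 to 2 isozyme pairs. The wider list gave 6 and 3 without any 1 array. Over all tested genes the calls went from 2263 to between 1847 and 2210 with 1 array left out, and to 1268 at an adjusted p under 0.01. The causes were not tested, beyond fewer arrays.

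Changes near 0 crossed it, called under no alternative: Dlat reached 0.051 under median centring and ran from -0.042 to 0.014 with arrays left out, Mpc1 reached -0.010 with the Actb covariate and ran from -0.019 to 0.092, and Pdk3 ran from -0.0010 to 0.076.

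Same-numbered arrays showed no strong shared deviation (correlations of 0.0024 to 0.051). Wild-type replicates 3 and 5 matched the depleted array of their own number best, and replicates 1, 2 and 4 matched another. Such weak correlations cannot show whether the samples were collected or processed as pairs. The main fit left the replicate number out. With the replicate block 5 member genes rose and 3 fell, 11 and 5 member probe sets, and 6 and 3 genes of the wider list. For the Gapdh controls the paired exact sign-flip permutation test gave p = 0.0625, the smallest that 5 pairs allow. Arrays give no depth, and dim signals such as Aldoc, near the control level, limit what can be seen.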
